A study of Mus musculus with 6 samples.

Results

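Semaphorins, plexins, neuropilins, ephrins and Eph receptors were followed in RNA sequencing of wild-type (WT) mouse brain, in 3 libraries from RNA isolated with the AllPrep DNA/RNA/Protein Mini Kit and 3 control libraries from RNA isolated with TRIzol. The 54 members were the genes whose symbol names a class 3 to 7 semaphorin, a plexin, a neuropilin, an Eph receptor or an ephrin, out of 22584 genes in the count table. Of these, 28 encode ligands (20 semaphorins and 8 ephrins) and 25 encode receptors (9 plexins, 2 neuropilins, 9 EphA and 5 EphB receptors). The remaining one, Plxna4os1, is a transcript annotated as antisense to the plexin gene Plxna4 and is neither; whether reads were counted by strand is not given, so reads of the pair cannot be told apart. AllPrep is a column kit that recovers DNA, RNA and protein from one lysate. TRIzol lyses tissue in phenol with guanidine, and isopropanol then brings down the RNA. The comparison sets co-extraction against the conventional method. The labels give no age, sex or brain region and do not say whether the libraries of a method stem from different animals. The p-values therefore reflect only how far these libraries vary, and that variation may be technical.

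Semaphorins are guidance cues that are secreted or held in the membrane, and plexins are their main receptors, with an intracellular domain that acts on small GTPases of the Ras and Rap families. Most class 3 semaphorins bind plexins through a neuropilin, which serves as the ligand-binding partner. Ephrins are bound to the cell surface, ephrin-A proteins by a lipid (GPI) anchor and ephrin-B proteins by a transmembrane segment, and they bind Eph receptor tyrosine kinases on a neighbouring cell, with signals running into both cells. These proteins steer growing axons in the embryo, and in the adult brain they are known for roles at synapses and dendritic spines, in myelinating cells and in blood vessels.

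Total counts per library were 38552252 to 50937858 in AllPrep and 36395330 to 44995120 in TRIzol. Levels below are CPM, a gene's counts scaled by the total of its library, given in the order of replicates 1, 2 and 3, and fold changes are AllPrep relative to TRIzol from edgeR's quasi-likelihood test with TMM scaling. A gene was called where the Benjamini-Hochberg adjusted p over all genes tested was below 0.05. Markers of other cells and regions were read as well. Summed markers of choroid plexus epithelium were at 795, 650 and 1313 CPM in AllPrep and 25.6, 43.7 and 31.7 CPM in TRIzol, and 13 of 14 rose. Of these sums, Ttr alone had 661, 562 and 1121 CPM in AllPrep and 12.3, 17.1 and 12.8 CPM in TRIzol. Otx2 did not pass. Hypothalamic markers summed to 39.8, 44.8 and 20.2 CPM in AllPrep and 7.14, 6.31 and 5.67 CPM in TRIzol, with 3 of 8 tested genes up. Pmch alone had 23.8 CPM in AllPrep replicate 2, and Pomc had a negative value (log2 fold change -0.14). Ependymal markers summed to 41.9, 30.2 and 39.6 CPM in AllPrep and 21.4, 13.0 and 10.7 CPM in TRIzol, with 4 of 9 up. Over all tested genes 2.52% rose. These shifts stand beside every difference between the methods below, and their part in it was not tested.

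Of the 54 members, 52 passed the filter on low counts and were tested. The other two were Efna4, encoding ephrin-A4, with 0.182, 0.233 and 0.373 CPM in AllPrep and 0.0550, 0.234 and 0.178 CPM in TRIzol, and Plxna4os1, with 0.208 to 0.250 CPM in AllPrep and 0.165 to 0.267 CPM in TRIzol. Among tested members, 11 had a mean over the 6 libraries of at least 100 CPM, 34 lay from 10 to below 100 CPM and 7 lay below 10 CPM. Apart from these ranges and the summed CPM and ratios below, genes are ranked by level per kilobase of the longest annotated transcript. These values are CPM per kb, as the mean over 6 libraries unless a method is named. Whether reads covered the transcripts evenly was not tested, and uneven coverage could alter such rankings.

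**Figure D1:**
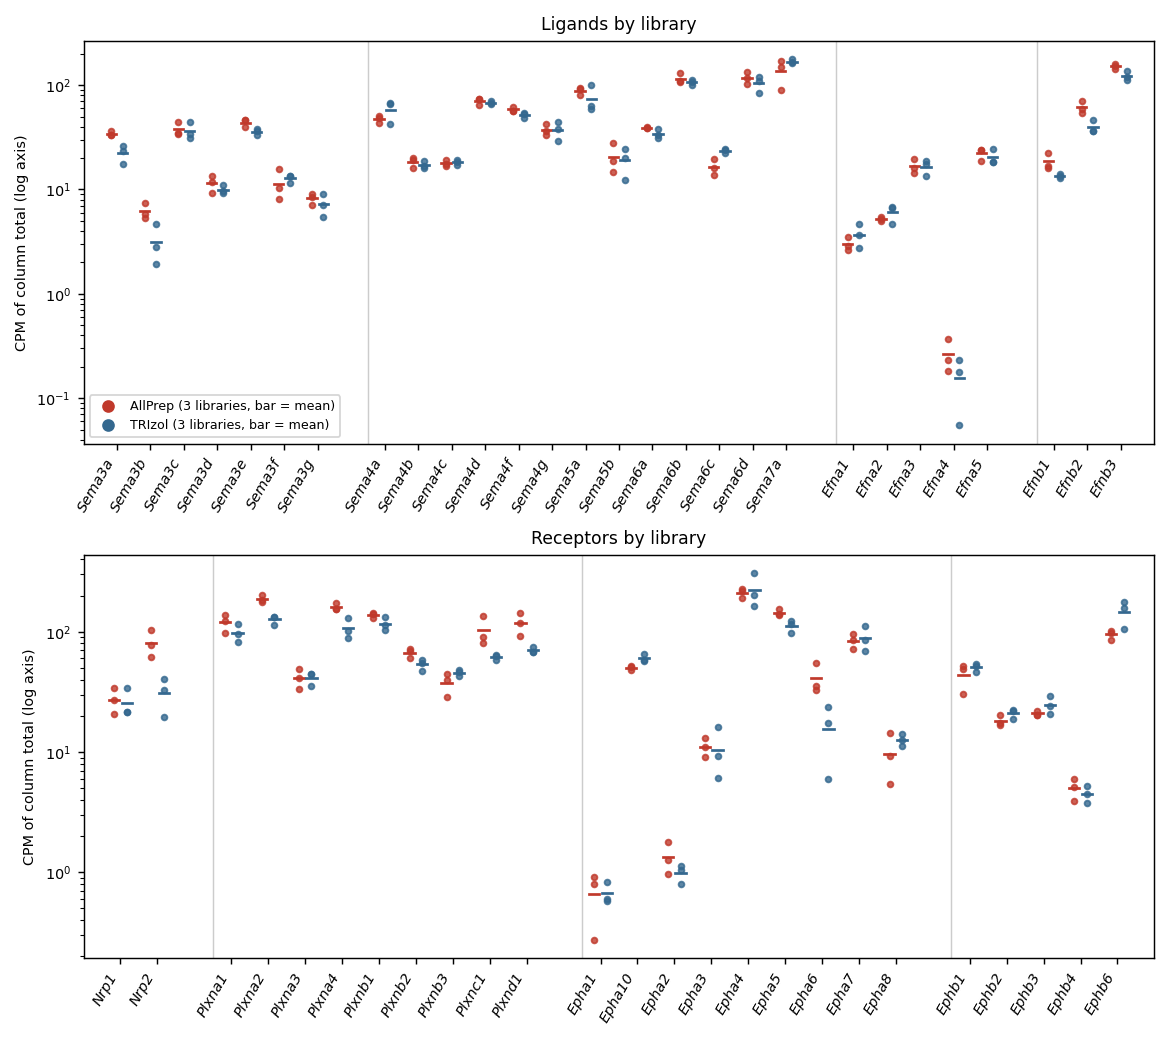
Level of each ligand gene (top) and receptor gene (bottom) in CPM, on a log axis; points are the 3 AllPrep and 3 TRIzol libraries and bars their means. Vertical lines separate the class 3 semaphorins, membrane semaphorins, ephrin-A and ephrin-B genes above, and neuropilins, plexins, EphA and EphB genes below. Nrp2, Plxna2, Plxnd1 and Efnb2 are higher in every AllPrep library than in any TRIzol library.

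The receptor genes Nrp2, Plxna2 and Plxnd1 and the ligand gene Efnb2 rose in AllPrep. These were 4 of 52 tested members, where 3.8% of all tested genes passed, 2.52% higher and 1.28% lower. No tested member fell in this edgeR fit, which is the one meant by edgeR below unless another fit is named. Ephb2 fell with length and GC trends removed, and Ephb6 fell without TRIzol replicate 3. At an unadjusted p below 0.05 there were 20 members, where 25.8% of all tested genes passed. Of these, 17 had positive values, as 13.4% of tested genes did, and 3 had negative values, as 12.4% did. DESeq2 called 13 members higher and 2 lower, where it called 13.7% of its genes, and limma called 5 higher and 0 lower, where it called 4.1%. The median log2 fold change was 0.14 over the 52 members and -0.01 over all 16325 tested genes, and 36 members had positive values and 16 negative, where 48.5% of tested genes were positive. In 16 members every AllPrep library stood above every TRIzol library, as in 13.4% of tested genes, and in 3 members every one stood below, as in 20.6% of tested genes. The counts for each family below are to be read against these shares.

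Each of the 4 lost its call whichever of the 6 libraries was left out, and kept its direction. The log2 fold change was then 1.20 to 1.67 for Nrp2 (edgeR adjusted p 0.0502 to 0.103), 0.54 to 0.64 for Plxna2 (0.0502 to 0.0857), 0.61 to 0.95 for Plxnd1 (0.0590 to 0.122) and 0.53 to 0.79 for Efnb2 (0.0509 to 0.119). The count of members also moved with the fit: 7 passed without a filter on low counts, where 3.29% of genes did, 2 with the replicate number as a block, where 1.45% did, and 2 with length and GC trends removed, where 2.47% did.

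The largest fold change among the called members was that of Nrp2, which encodes neuropilin-2, the co-receptor for Sema3f and Sema3c and for some vascular endothelial growth factors. Nrp2 had 78.3, 61.6 and 104 CPM in AllPrep and 19.7, 32.7 and 40.3 CPM in TRIzol. Each AllPrep library was at least 61.6 CPM and no TRIzol library was above 40.3 CPM, with a spread of 2.05-fold among the TRIzol libraries themselves. The log2 fold change was 1.43 (edgeR adjusted p = 0.039, SE 0.28), a 2.7-fold difference. Nrp1, encoding neuropilin-1, the binding partner of Sema3a, had 26.9, 20.6 and 33.9 CPM in AllPrep and 21.7, 21.7 and 33.9 CPM in TRIzol. The groups overlapped fully for Nrp1 and its log2 fold change was 0.11 (95% interval from limma -0.41 to 0.64). Whether the 2 neuropilin genes differed from each other in their response was not tested. Per kilobase, Nrp2 was at 12.1 CPM in AllPrep and 4.59 CPM in TRIzol, and Nrp1 at 7.45 CPM in AllPrep and 7.07 CPM in TRIzol.

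Of 9 plexin genes, 2 rose (Plxna2 and Plxnd1), 7 did not pass and 8 had positive values, with a median log2 fold change of 0.36. Over all tested genes 2.52% rose and 48.5% had positive values. All 9 plexin genes have transcripts above 6 kb. Of all tested genes, 4.83% rose at 6 to 8 kb (median log2 fold change 0.13) and 16.6% from 8 kb upward (median 0.29). Plxna2, encoding plexin-A2, a receptor for class 6 semaphorins and a partner of neuropilins, had 186, 179 and 201 CPM in AllPrep and 132, 134 and 114 CPM in TRIzol. Its AllPrep libraries lay within 1.13-fold and its TRIzol libraries within 1.17-fold of each other, with no overlap between the groups. The log2 fold change was 0.61 (edgeR adjusted p = 0.026, SE 0.09), the smallest adjusted p among the members. Plxnd1 encodes plexin-D1, which binds Sema3e without a neuropilin and is known for patterning vessels and striatal circuits. It had 91.5, 119 and 143 CPM in AllPrep and 68.4, 68.0 and 75.0 CPM in TRIzol. The lowest AllPrep library still exceeded the highest TRIzol library (log2 fold change 0.78, edgeR adjusted p = 0.045, SE 0.16).

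Plxna4, Plxnc1 and Plxnb2 had no overlap between the methods but did not pass. Plxna4, encoding plexin-A4, which carries Sema3a and Sema6a signals, had 154, 155 and 173 CPM in AllPrep and 89.2, 102 and 130 CPM in TRIzol (log2 fold change 0.62, edgeR adjusted p = 0.053, SE 0.14). Plxnc1, encoding the Sema7a receptor plexin-C1, had 91.2, 80.3 and 136 CPM in AllPrep and 58.6, 62.8 and 64.2 CPM in TRIzol (log2 fold change 0.77, edgeR adjusted p = 0.062, SE 0.19). Plxnb2 had 69.3, 60.7 and 71.6 CPM in AllPrep and 47.5, 58.1 and 55.1 CPM in TRIzol. For Plxnc1 the distance between the groups rests most on AllPrep replicate 3, while the 3 TRIzol libraries lay within 1.09-fold of each other. Plxnb1, the Sema4d receptor, was at 16.0 CPM per kb in AllPrep, below Plxna2 and Plxnd1 (17.1 each), and at 13.6 CPM per kb in TRIzol, above both (11.5 and 10.2). It had 141, 130 and 144 CPM in AllPrep and 103, 115 and 134 CPM in TRIzol, so that the groups overlapped. Plxna1 and Plxna3 had log2 fold changes of 0.32 and 0.03. Plxnb3, a plexin of oligodendrocytes, had a negative value (-0.25), and Plxna3 also had one with library size alone and, like Plxnb1, with length and GC trends removed. Plxnb3 had 44.4, 39.9 and 28.5 CPM in AllPrep and 47.9, 42.8 and 46.1 CPM in TRIzol. AllPrep replicate 3, the lowest for Plxnb3, was also the lowest for summed oligodendrocyte markers, at 5223, 5563 and 3145 CPM in AllPrep and 6922, 6991 and 5937 CPM in TRIzol, and the part of those cells in the Plxnb3 value was not tested. Of the 10 oligodendrocyte markers 0 had positive values (median log2 fold change -0.46), where 48.5% of all tested genes did, and 0 passed in edgeR. In tissue RNA, fewer cells of a type and less RNA per cell cannot be told apart.

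Of the 3 ephrin-B genes, Efnb2 rose, 2 did not pass, and in all 3 every AllPrep library stood above every TRIzol library (median log2 fold change 0.50). Efnb2, encoding ephrin-B2, a marker of arterial endothelium that neurons and glia also make, had 58.8, 53.8 and 71.0 CPM in AllPrep and 46.4, 36.6 and 36.4 CPM in TRIzol (log2 fold change 0.66, edgeR adjusted p = 0.048, SE 0.14). Efnb1 had 16.2, 16.9 and 22.6 CPM in AllPrep and 13.5, 14.04 and 12.8 CPM in TRIzol (adjusted p = 0.085 in edgeR). Efnb3, encoding ephrin-B3, a midline repellent for corticospinal axons, was the ephrin with the highest level per kilobase (43.1 CPM per kb). It had 153, 142 and 158 CPM in AllPrep and 137, 112 and 120 CPM in TRIzol, a narrow gap between the groups (log2 fold change 0.33, edgeR adjusted p = 0.088, SE 0.09). Endothelial markers summed to 416, 423 and 368 CPM in AllPrep and 343, 330 and 409 CPM in TRIzol, so those groups overlapped. None of the 10 endothelial genes passed in edgeR or limma, 1 was higher in DESeq2, 2 had an unadjusted p below 0.05, both higher, and 7 had positive values (median log2 fold change 0.09). The part of endothelial cells in the Efnb2 value was not tested.

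The promoters of the 4 genes that rose are shown because these are the members the comparison turns on. They come from RefSeq on build GRCm38.p6, cover 250 bases before to 50 bases after the annotated start and are written 5′ to 3′ on the gene's own strand. Capitals mark the GC box letters GGGCGG or their complement CCGCCC, the core bound by Sp1-family factors, and adjacent matches can run together. The windows are chr1:62703067-62703366 (plus strand) for Nrp2, chr1:194619579-194619878 (plus) for Plxna2, chr6:115994956-115995255 (minus) for Plxnd1 and chr8:8661193-8661492 (minus) for Efnb2.
Nrp2: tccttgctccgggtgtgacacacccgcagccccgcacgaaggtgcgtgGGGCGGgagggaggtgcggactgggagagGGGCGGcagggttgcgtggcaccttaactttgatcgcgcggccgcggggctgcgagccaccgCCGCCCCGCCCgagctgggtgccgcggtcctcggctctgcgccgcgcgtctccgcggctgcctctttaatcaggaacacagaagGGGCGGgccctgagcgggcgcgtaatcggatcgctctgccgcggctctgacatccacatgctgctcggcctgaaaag
Plxna2: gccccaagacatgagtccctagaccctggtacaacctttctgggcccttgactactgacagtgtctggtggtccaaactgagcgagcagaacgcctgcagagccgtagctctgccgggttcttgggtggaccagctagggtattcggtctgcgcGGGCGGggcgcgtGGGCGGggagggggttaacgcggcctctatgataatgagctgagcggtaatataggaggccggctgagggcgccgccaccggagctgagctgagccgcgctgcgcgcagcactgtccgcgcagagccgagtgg
Plxnd1: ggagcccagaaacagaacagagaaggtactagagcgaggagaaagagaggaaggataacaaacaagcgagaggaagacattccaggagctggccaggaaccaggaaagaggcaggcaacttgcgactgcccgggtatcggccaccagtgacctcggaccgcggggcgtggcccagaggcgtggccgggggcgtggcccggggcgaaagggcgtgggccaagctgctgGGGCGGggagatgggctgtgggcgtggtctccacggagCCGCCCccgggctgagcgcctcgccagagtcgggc
Efnb2: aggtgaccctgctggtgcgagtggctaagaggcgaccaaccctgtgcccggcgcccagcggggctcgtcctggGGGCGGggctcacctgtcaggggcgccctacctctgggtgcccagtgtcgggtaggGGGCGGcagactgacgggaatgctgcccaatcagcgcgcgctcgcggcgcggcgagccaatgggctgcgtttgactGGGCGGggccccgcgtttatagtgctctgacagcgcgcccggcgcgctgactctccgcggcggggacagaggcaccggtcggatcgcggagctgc

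A script found 5 matches in the Nrp2 window, 2 in Plxna2, 2 in Plxnd1 and 3 in Efnb2, with 37, 25, 23 and 35 CG dinucleotides in the same order. Such a match stood in 75.4% of 61 windows of the 47 members that were found in the table and in 35.7% of all 32851 windows, which include non-coding and predicted genes. The median number of CG dinucleotides was 20 in members' windows and 7 in all windows. A match is a description of letters and says nothing about binding or about the difference between the methods.

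**Figure D2:**
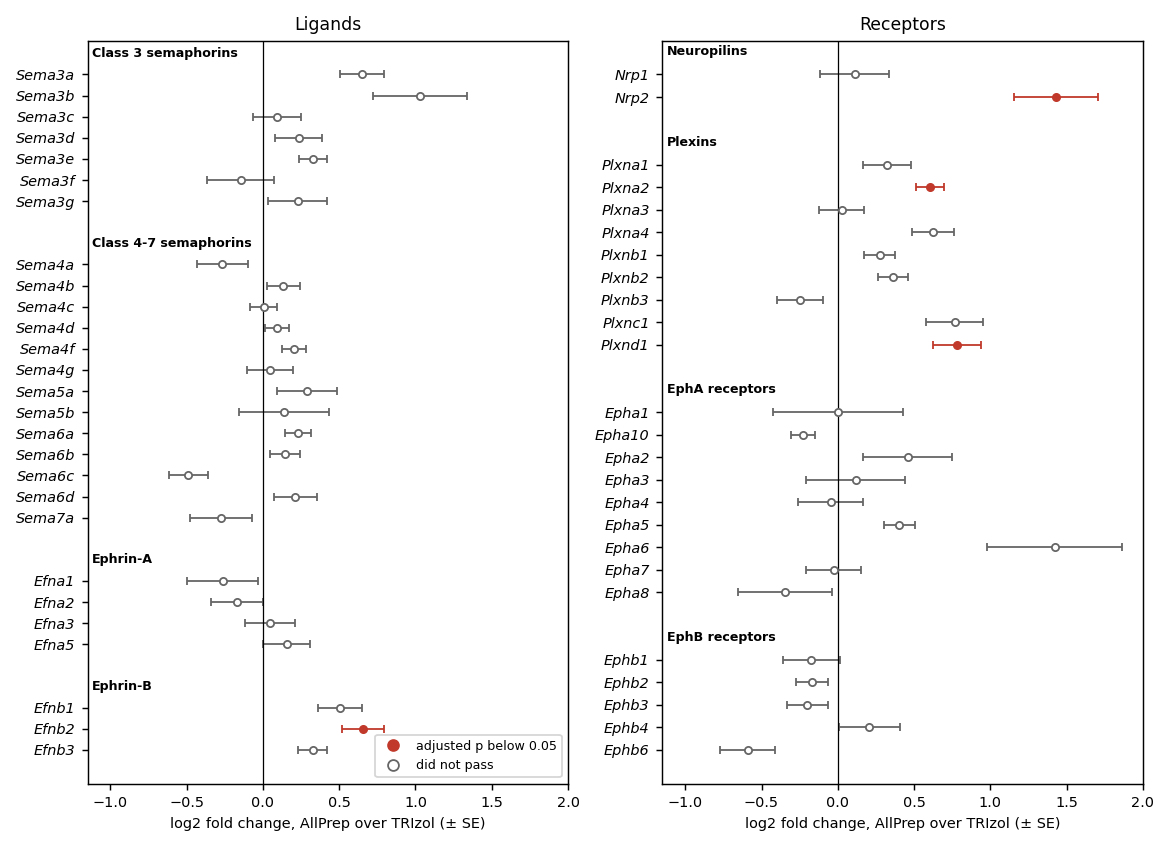
Log2 fold change of AllPrep over TRIzol for the 27 ligand genes (left) and 25 receptor genes (right) tested, with bars of 1 SE; filled red points passed at an adjusted p below 0.05 and open grey points did not. All 3 ephrin-B genes and 8 of 9 plexin genes lie right of 0, while 4 of 5 EphB genes lie left of it; with library size alone Plxna3 lies just left of 0, and with length and GC trends removed Plxna3 and Plxnb1 do.

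Class 3 semaphorins, the secreted ones, had mostly positive values with no call. None of the 7 passed in edgeR or limma, 3 passed in DESeq2, all higher, and the same number had an unadjusted p below 0.05 (median log2 fold change 0.24). Sema3a, the founding repellent of the family, had 33.4, 33.0 and 36.5 CPM in AllPrep and 23.5, 26.1 and 17.7 CPM in TRIzol. The AllPrep libraries lay within 1.11-fold of each other and stood clear of TRIzol (log2 fold change 0.65, edgeR adjusted p = 0.053, SE 0.14). Sema3e, the plexin-D1 ligand, had 45.9, 39.5 and 46.0 CPM in AllPrep and 37.8, 36.5 and 33.0 CPM in TRIzol (log2 fold change 0.33, adjusted p = 0.077 in edgeR). Sema3b had 5.87, 5.34 and 7.42 CPM in AllPrep and 1.92, 4.65 and 2.80 CPM in TRIzol, the largest fold change of a ligand (log2 1.03, SE 0.31, adjusted p = 0.094 in edgeR) at a low level. Meningeal fibroblast markers summed to 104, 69.4 and 145 CPM in AllPrep and 51.3, 102 and 91.6 CPM in TRIzol, and their part in the value was not tested. Sema3c, per kilobase the class 3 gene with the highest level (6.76 CPM per kb), had 44.7, 35.1 and 33.8 CPM in AllPrep and 44.0, 34.1 and 31.0 CPM in TRIzol, which overlap. Sema3f, the main ligand of neuropilin-2, had 15.6, 10.3 and 8.11 CPM in AllPrep and 13.4, 13.5 and 11.4 CPM in TRIzol. Sema3d and Sema3g had log2 fold changes of 0.24 and 0.23.

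None of the 13 genes of classes 4 to 7 passed in edgeR or limma, Sema6c was lower in DESeq2, and 3 had an unadjusted p below 0.05, 2 of them higher (median log2 fold change 0.13, range -0.49 to 0.29). Sema7a, which is anchored by GPI and signals through plexin-C1 and integrins, had the highest level per kilobase of the membrane semaphorins (46.1 CPM per kb). It had 148, 169 and 90.2 CPM in AllPrep and 165, 162 and 178 CPM in TRIzol. AllPrep replicate 3 was 1.87-fold below AllPrep replicate 2 for Sema7a, and the other AllPrep libraries lay close to TRIzol. Sema6b and Sema6d, transmembrane ligands of plexin-A receptors, had log2 fold changes of 0.14 and 0.21 at 29.8 and 17.2 CPM per kb.

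Sema6c was the only semaphorin with lower values in every AllPrep library. It had 19.6, 16.0 and 13.7 CPM in AllPrep and 24.2, 24.3 and 22.3 CPM in TRIzol (log2 fold change -0.49, edgeR adjusted p = 0.071, SE 0.13), the smallest adjusted p of its group. Sema4d, a ligand of plexin-B1 found on oligodendrocytes and immune cells, had 74.3, 72.9 and 64.1 CPM in AllPrep and 70.4, 65.9 and 66.7 CPM in TRIzol. Sema6a had 38.9, 38.7 and 39.5 CPM in AllPrep and 31.4, 33.4 and 37.7 CPM in TRIzol, without overlap (log2 fold change 0.23, adjusted p = 0.15 in edgeR). The limma 95% interval of the log2 fold change ran from -0.09 to 0.27 for Sema4d and from -0.21 to 0.21 for Sema4c. Sema5a, a transmembrane semaphorin with thrombospondin repeats, had 94.3, 92.1 and 79.8 CPM in AllPrep and 63.4, 58.9 and 101 CPM in TRIzol, so that TRIzol replicate 3 was the highest of all 6. Sema4a, Sema4b, Sema4f, Sema4g and Sema5b had log2 fold changes of -0.27, 0.13, 0.21, 0.05 and 0.14.

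Of 4 tested ephrin-A genes none passed in edgeR, DESeq2 or limma and none had an unadjusted p below 0.05, with log2 fold changes from -0.26 to 0.16. Efna3 had the highest level per kilobase of them (7.03 CPM per kb). It had 14.4, 16.2 and 19.4 CPM in AllPrep and 18.5, 13.4 and 17.7 CPM in TRIzol. Efna5, a repellent in topographic maps of retinal axons, had 24.1, 24.0 and 18.6 CPM in AllPrep and 24.5, 18.5 and 18.2 CPM in TRIzol. Efna1, with the smallest p of the group, had 2.64, 3.53 and 2.85 CPM in AllPrep and 4.67, 2.75 and 3.67 CPM in TRIzol (adjusted p = 0.52 in edgeR). The groups overlapped in each of these 3 genes. Efna2 had a log2 fold change of -0.17.

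Eph receptor genes ran in both directions and none was called. Of 9 EphA genes none passed in edgeR or limma, Epha5 was higher in DESeq2, and 3 had an unadjusted p below 0.05, 2 of them higher (median log2 fold change -0.001, range -0.35 to 1.42). Epha4, the receptor that binds ephrins of both kinds and the most abundant EphA gene per kilobase (33.5 CPM per kb in AllPrep and 35.5 in TRIzol), had 190, 229 and 218 CPM in AllPrep and 163, 204 and 307 CPM in TRIzol. The AllPrep libraries lay inside the TRIzol range. Epha5, which binds ephrin-A5, had 138, 141 and 155 CPM in AllPrep and 97.8, 116 and 123 CPM in TRIzol, with no overlap (log2 fold change 0.40, edgeR adjusted p = 0.064, SE 0.10). Epha6 had 35.1, 32.8 and 55.0 CPM in AllPrep and 5.96, 17.4 and 23.6 CPM in TRIzol, a fold change close to that of Nrp2 with a wider error (log2 fold change 1.42, edgeR adjusted p = 0.10, SE 0.44). The TRIzol libraries of Epha6 spread 3.97-fold, the widest spread of a tested member within either method, and TRIzol replicate 1 was the lowest. Epha10, a receptor without an active kinase, was lower in every AllPrep library, at 48.0, 50.9 and 52.0 CPM against 58.6, 65.1 and 57.6 CPM in TRIzol (log2 fold change -0.23, adjusted p = 0.12 in edgeR). Epha7, Epha3 and Epha8 had log2 fold changes of -0.03, 0.12 and -0.35, and Epha1 and Epha2, mostly epithelial genes, were at most 1.77 CPM in each library.

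Of 5 EphB genes none passed in edgeR or limma, Ephb6 was lower in DESeq2 and was the only one with an unadjusted p below 0.05, and 4 had negative values (median log2 fold change -0.17). Ephb6, whose kinase domain is inactive, was the most abundant of them per kilobase (32.2 CPM per kb). It had 97.95, 103 and 85.2 CPM in AllPrep and 159, 176 and 106 CPM in TRIzol. Every AllPrep library was lower than every TRIzol library, by a small margin against TRIzol replicate 3 (log2 fold change -0.59, edgeR adjusted p = 0.10, SE 0.18). Ephb4, the venous receptor for ephrin-B2, had 5.16, 3.94 and 6.01 CPM in AllPrep and 3.74, 5.24 and 4.44 CPM in TRIzol. Ephb1, Ephb2 and Ephb3, receptors with roles at excitatory synapses and the midline, had log2 fold changes of -0.17, -0.17 and -0.20. The limma interval for Ephb2, the narrowest of the 3, ran from -0.42 to 0.08.

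Ligands and receptors were set against each other as summed levels in each library. Ligand mRNA summed to 1271, 1207 and 1167 CPM in AllPrep and 1131, 1113 and 1151 CPM in TRIzol. Receptor mRNA summed to 1749, 1747 and 1967 CPM in AllPrep and 1378, 1595 and 1685 CPM in TRIzol. Both sums in CPM were higher in every AllPrep library than in any TRIzol library. In CPM per kb both sums overlapped between the methods. Ligand sums per kb were 295.7, 284.9 and 274.0 in AllPrep and 276.0, 267.1 and 271.3 in TRIzol. Receptor sums per kb were 255.368, 256.668 and 284.038 in AllPrep and 215.551, 249.243 and 255.379 in TRIzol. The ratio of ligand to receptor mRNA in CPM was 0.670 ± 0.069 in AllPrep and 0.734 ± 0.0756 in TRIzol (SD, n = 3 each), and the groups overlapped. In CPM per kb it was 1.08 ± 0.10 in AllPrep and 1.14 ± 0.12 in TRIzol, so which side is larger depends on the scale. Median log2 fold changes were 0.14 for the 27 tested ligands and 0.12 for the 25 receptors, with 1 ligand and 3 receptors called. The receptor median rests on single libraries: it was 0.004 without TRIzol replicate 1 and 0.31 without TRIzol replicate 3.

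Semaphorin over plexin mRNA in CPM was 1.06, 1.05 and 0.801 in AllPrep and 1.32, 1.22 and 1.23 in TRIzol, without overlap. In CPM per kb it was 1.98, 2.00 and 1.48 in AllPrep and 2.55, 2.36 and 2.31 in TRIzol, also without overlap. That scale divides a gene by the same length in every library. It therefore cannot remove a difference between the methods that follows transcript length. The median longest transcript was 7302 bases for plexins and 4546 bases for semaphorins, and the part of length in this ratio was not tested. Summed plexin mRNA was 974 ± 98.4 CPM in AllPrep and 723 ± 51.0 CPM in TRIzol, while summed semaphorin mRNA was 936 ± 64.0 CPM in AllPrep and 908 ± 27.8 CPM in TRIzol (SD, n = 3 each). Ephrin over Eph receptor mRNA in CPM was 0.391, 0.341 and 0.400 in AllPrep and 0.374, 0.254 and 0.254 in TRIzol, with TRIzol replicate 1 inside the AllPrep range. In CPM per kb it was 0.637, 0.568 and 0.663 in AllPrep and 0.598, 0.407 and 0.441 in TRIzol. Since these ratios are scores over the members, no p is given for them.

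**Figure D3:**
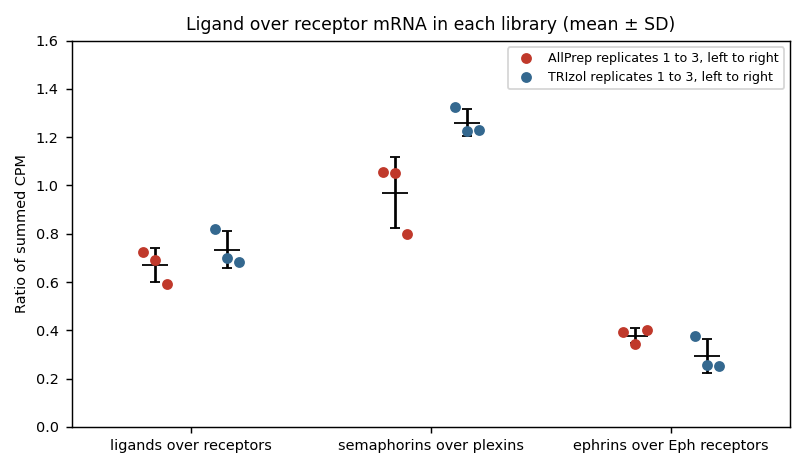
Ratio of summed ligand to summed receptor CPM in each library, for all members, for semaphorins over plexins and for ephrins over Eph receptors; points are libraries, black lines mean ± SD of 3. Semaphorin over plexin values are 0.801 to 1.06 in AllPrep and 1.22 to 1.32 in TRIzol, and the other 2 ratios overlap.

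For 9 known ligand and receptor combinations the values can be read side by side. No combination had both genes called in edgeR, while DESeq2 called both Sema3e and Plxnd1 higher. For Sema3e with Plxnd1 the log2 fold changes were 0.33 and 0.78, and for Sema6a with Plxna2 they were 0.23 and 0.61, the receptor being the gene called in edgeR in each. For Sema3f with Nrp2 they were -0.15 and 1.43, and for Sema7a with Plxnc1 -0.28 and 0.77, with opposite signs. For Efnb2 with Ephb4, where the ligand was called in edgeR, they were 0.66 and 0.21. Sema3a with Nrp1 gave 0.65 and 0.11, Sema4d with Plxnb1 0.09 and 0.28, Efnb3 with Epha4 0.33 and -0.05, and Efna5 with Epha5 0.16 and 0.40. All values in this paragraph compare AllPrep with TRIzol in the same 6 libraries and are not independent of each other.

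Downstream of the receptors, 44 genes of signal transducers were read from a separate list, and 4 of them rose, 0 fell and 40 did not pass in edgeR (median log2 fold change 0.06), where 2.52% of all tested genes rose and 1.28% fell. In limma likewise 4 rose and 0 fell, DESeq2 called 5 higher and 1 lower, where it called 13.7% of its genes. At an unadjusted p below 0.05 there were 11 higher and 3 lower values, where 13.4% of all tested genes were higher and 12.4% lower. Arhgef12, whose product binds plexin-B, had 287, 279 and 287 CPM in AllPrep and 158, 213 and 201 CPM in TRIzol (log2 fold change 0.61, edgeR adjusted p = 0.035, SE 0.11). Gsk3b, a kinase of the semaphorin 3A pathway, had 285, 278 and 274 CPM in AllPrep and 213, 202 and 209 CPM in TRIzol (log2 fold change 0.46, edgeR adjusted p = 0.025, SE 0.06). No library of one method reached the range of the other in these genes. Abl2, a tyrosine kinase that acts on the cytoskeleton, and Sipa1l1, a Rap regulator of dendritic spines, had log2 fold changes of 0.54 and 0.53 (adjusted p = 0.039 and 0.045 in edgeR). Without any one library, 0 to 2 genes of the combined list passed, and with length and GC trends removed none did. Of 14 co-receptor and partner genes none passed in edgeR or limma, 4 were higher in DESeq2 and 6 had an unadjusted p below 0.05, all higher. Met, the hepatocyte growth factor receptor that partners plexin-B, had the smallest adjusted p of them. It had 9.32, 8.25 and 15.4 CPM in AllPrep and 5.82, 5.22 and 2.93 CPM in TRIzol (log2 fold change 1.28, edgeR adjusted p = 0.065, SE 0.32).

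Single libraries shaped several members. AllPrep replicate 3 held the highest value of 24 of the 52 tested members and the lowest of 11, and TRIzol replicate 1 held the lowest of 19. The median deviation of members from their own mean over the 6 libraries (log2, TMM scaled) was 0.12, 0.07 and 0.13 in AllPrep and -0.15, -0.08 and -0.02 in TRIzol, where the median of all tested genes stayed between -0.01 and 0.01. For receptors alone it was 0.11, 0.07 and 0.27 in AllPrep and -0.31, -0.07 and -0.01 in TRIzol. TRIzol replicate 3 was the highest of the 6 for 9 members, among them Epha3, Epha4, Epha7 and Sema5a. In the same library thalamic markers summed to 1087 CPM, where the AllPrep libraries had 497, 481 and 265 CPM and TRIzol replicates 1 and 2 had 230 and 363 CPM, and the part of thalamic tissue in those members was not tested. Striatal markers spread as widely, at 1242, 1398 and 498 CPM in AllPrep and 943, 501 and 237 CPM in TRIzol. All 11 striatal markers had positive values (median log2 fold change 0.96), where 48.5% of all tested genes did, and 0 passed in edgeR.

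**Figure D4:**
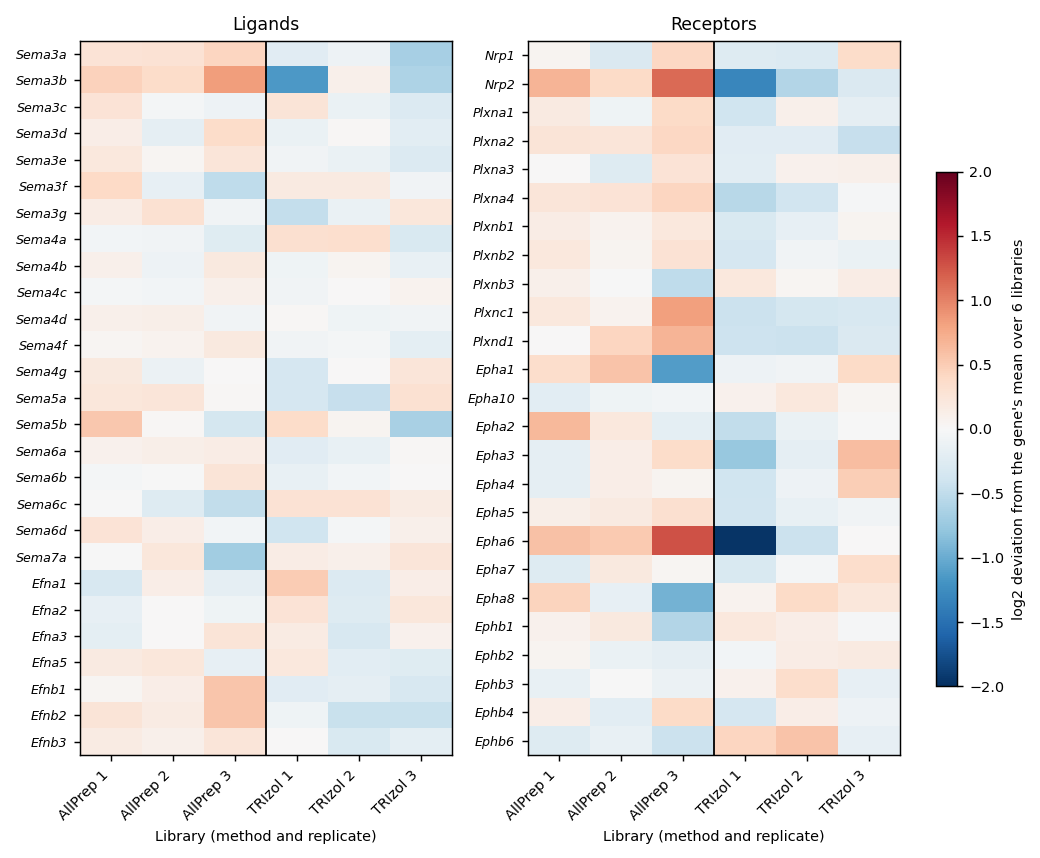
Log2 deviation of each tested ligand gene (left) and receptor gene (right) from its own mean over the 6 libraries; columns are libraries, AllPrep left of the black line and TRIzol right of it, red above and blue below the mean. Nrp2 and Epha6 are highest in AllPrep replicate 3 and lowest in TRIzol replicate 1, and Epha3 and Epha4 are highest in TRIzol replicate 3.

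Cerebellar markers were at 221, 221 and 225 CPM in AllPrep and 145, 144 and 221 CPM in TRIzol. Of these, Calb1 had 134, 145 and 179 CPM in AllPrep and 103, 99.8 and 112 CPM in TRIzol. Zic1 had 61.7, 50.1 and 23.4 CPM in AllPrep and 23.4, 14.6 and 80.3 CPM in TRIzol. Gabra6 was at most 0.0519 CPM and Pcp2 at most 0.311 CPM in each library. Cortical markers were at 973, 1322 and 1420 CPM in AllPrep and 1556, 1176 and 1169 CPM in TRIzol. Pan-neuronal markers were at 7907 to 8428 CPM in AllPrep and 8326 to 8926 CPM in TRIzol. Astrocyte markers were at 4958 to 5275 CPM in AllPrep and 4227 to 4882 CPM in TRIzol. Within those astrocyte sums, Slc1a2 had 2842, 3136 and 3161 CPM in AllPrep and 2349, 2203 and 2616 CPM in TRIzol. Only 4 of the 8 astrocyte markers were above 0 in log2 fold change, with 0.009 as the median of the list. Aldoc, Fgfr3, Aldh1l1 and Aqp4 were below 0 (-0.23, -0.13, -0.12 and -0.01). Microglial markers were at 313 to 330 CPM in AllPrep and 288 to 300 CPM in TRIzol, and oligodendrocyte precursor markers at 257 to 276 CPM in AllPrep and 212 to 236 CPM in TRIzol. Of the lists in this paragraph, only Slc1a3 from the astrocyte list and Calb1 from the cerebellar list rose in edgeR. With Gabra6 and Pcp2 near 0, the Calb1 value is not read as one of cerebellar tissue.

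Members are long transcripts, and fold changes followed transcript length across the table. The median longest transcript was 4.69 kb for tested members (4.09 kb for ligands and 6.33 kb for receptors) and 3.31 kb for all tested genes. Over 16219 tested genes with a length, Spearman's rank correlation of fold change and length was 0.31, and over the 52 members 0.34, given as descriptions across genes, which share their libraries. Among genes with transcripts of 6 to 8 kb the median log2 fold change was 0.24 for 13 members and 0.13 for all 1325 genes, and from 8 kb upward it was 0.31 for 6 members and 0.29 for all 923 genes. From 4 to 6 kb it was 0.10 for 16 members and 0.05 for all genes, and from 2 to 4 kb 0.08 for 16 members and -0.04 for all genes. Plxna2, with a transcript of 11.04 kb, belongs to the range in which 16.6% of all tested genes rose. With trends on length and GC content removed, the median log2 fold change of members was 0.04 and that of all genes -0.05. Nrp2 passed in that fit (log2 fold change 1.25, adjusted p = 0.048 in edgeR), while Plxna2, Plxnd1 and Efnb2 did not, with log2 fold changes of 0.23, 0.56 and 0.55 and adjusted p-values of 0.22, 0.092 and 0.095 in edgeR, and Ephb2 fell (log2 fold change -0.54, adjusted p = 0.044 in edgeR). Without the removal of trends Ephb2 was at -0.17 (edgeR adjusted p = 0.35). Its call depends on the length of its longest transcript, 10.9 kb, and other transcripts were not tried.

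**Figure D5:**
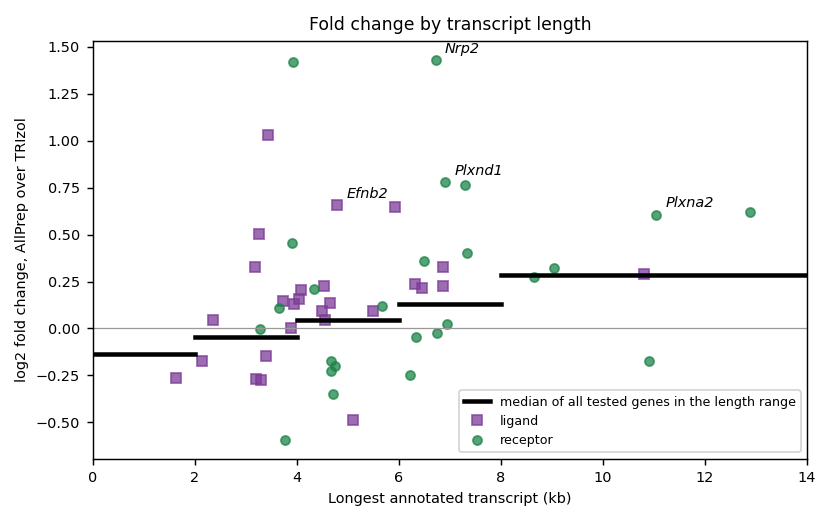
Log2 fold change of AllPrep over TRIzol against the longest annotated transcript in kilobases, for tested ligands (purple squares) and receptors (green circles); black bars are medians of all tested genes in each length range, the last range running beyond the axis. The black bars climb with length, through 0.13 at 6 to 8 kb to 0.29 from 8 kb; Nrp2, Plxnd1 and Efnb2 stand well above the bar of their range.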

How the data were processed

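RNA of WT mouse brain was isolated with AllPrep or TRIzol, amplified by T7 in vitro transcription and sequenced as paired reads, per the labels' protocols. The authors deposited raw counts per gene, without normalization. The submitters' processing notes name build GRCm39 and the tools STAR 2.7.9a, featureCounts, cutadapt, FastQC 0.11.9 and limma 3.60.6. Settings, strand included, were not given in the sources used here. Of 22692 rows, 108 repeats of an Ensembl ID with identical counts were removed. Even values made up 64.2% to 70.9% of counts from 1 to 20, which double counting of read pairs would give, so halved counts were an alternative. Libraries of one method differed beyond sampling noise (chi-square 13.6 to 44.4 per degree of freedom), and all 6 were kept.

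The test was edgeR 4.0.16 (R 4.3.3) with filterByExpr, TMM and the two-sided quasi-likelihood F-test, without a block, adjusted over 16325 genes. The SE is the log2 fold change divided by the square root of F. Intervals came from limma-trend (limma 3.58.1, prior count 2), and DESeq2 1.42.0 was an alternative. Lengths and GC content are of the longest GENCODE vM21 transcript (99.4% of tested genes). Length and GC trends were removed with mgcv 1.9.3 as edgeR offsets. On simulated data of AllPrep against TRIzol with 16125 genes, edgeR recovered 29.9% of 1.5-fold, 67.2% of 2-fold and 97.0% of 4-fold changes, and unchanged genes were 7.19% of calls. The simulation changed 67, 67 and 66 genes at these folds, equally up and down and with no low-count genes among them. The real comparison gave 621 calls, 66.3% of them higher, so these shares need not hold for it.

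Members, the transducer and co-receptor lists, the 14 marker lists and the tests were chosen with earlier results of these data known. Values in every library are given for members called, the most abundant and the one with the smallest p in each group, and the 9 ligand and receptor combinations. Others, and Met, were added after their values were seen. Further alternatives were other scalings, filters and thresholds, a replicate block, and fits without each library.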

Additional observations from a re-analysis of the deposited data

How the results depend on the processing

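The 621 genes and 4 members called over all genes became 2101 and 15 in DESeq2 and 2021 and 14 at an adjusted p below 0.1. Without a filter 7 members passed. They became 400 and 2 with length and GC trends removed, a fit in which 37.0% of calls were higher in AllPrep, against 66.3% in the fit reported and 52.9% with library size alone. With 1 library left out, 2 to 205 genes and 0 to 3 members passed; fewer samples enter those fits. Without TRIzol replicate 3 the 3 were Plxna4, Ephb6 and Sema5a. The 4 transducer and co-receptor calls became 10 in DESeq2, 9 at an adjusted p below 0.1, 0 with trends removed and 0 to 2 with 1 library left out. The ligand to receptor ratio differed by -0.064 (AllPrep minus TRIzol), by -0.061 per kilobase, and by -0.092 (without AllPrep replicate 1) to -0.020 (without TRIzol replicate 1) with 1 library left out.

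Same-numbered libraries did not deviate together (correlations of -0.05, 0.01 and 0.16), AllPrep replicate 1 correlated best with TRIzol replicate 2, and no label says what the number marks. With the replicate block 236 genes, 2 members (Nrp2 and Plxna4) and 1 transducer passed.

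Of 779 member values under alternatives, 694 kept direction and side of the threshold, 30 lost the call, 20 gained one and 35, in 16 uncalled members, changed sign. With trends removed these were Sema3c (-0.0011), Sema4c (-0.063), Sema4d (-0.0010), Sema4g (-0.052), Sema5a (-0.040), Plxna3 (-0.18) and Plxnb1 (-0.013); with library size alone, Sema4c (-0.031) and Plxna3 (-0.0096); and with DESeq2 and its size factors, Epha1 (0.012 and 0.0037). With 1 library left out, values ran over the following ranges: Sema3c -0.028 to 0.26, Sema3f -0.43 to 0.043, Sema4c -0.051 to 0.041, Sema4g -0.093 to 0.19, Sema5b -0.13 to 0.37, Efna3 -0.089 to 0.16, Nrp1 -0.090 to 0.36, Plxna3 -0.12 to 0.15, Epha1 -0.31 to 0.38, Epha3 -0.15 to 0.57, Epha4 -0.23 to 0.25, Epha7 -0.17 to 0.17, Ephb1 -0.32 to 0.030. The cause of these changes was not tested. Changes of 1.5-fold are the least often recovered at this depth and number of libraries.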
